A study of Mus musculus with 6 samples.

Results

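A set of 44 genes that copy DNA and divide the cell was followed in the uterus of ovariectomized mice, 25 genes of DNA replication and 19 of mitosis. The set is a list of gene names, and a probe set was assigned to a gene when the platform annotation gave that single symbol. Where a gene had several probe sets, the one with the highest mean over the 6 arrays stood for it. In this way 43 of the 44 genes were measured among 18193 genes in all, and the mitotic cyclin Ccnb1 was not analysed here.

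The progesterone group held 3 arrays and the oil group 3 arrays. Mice of the progesterone group received 1 mg of progesterone in 100 µl of sesame oil, and mice of the oil group received sesame oil without the hormone. Both groups were female mice 8 weeks old, of mixed background strain, with ovaries removed at 6 weeks of age and tissue taken 6 h after the injection. All carried the Gata2 f/f genotype, a gene flanked by loxP sites, and no recombinase is named in the labels. RNA of whole uterine tissue was pooled from 3 mice. The labels do not say whether each array is a pool of its own, so p-values measure only the spread between these arrays, which may be technical.

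A cell that is about to divide first licenses its replication origins with the MCM helicase, then fires them and copies the DNA with polymerases that are held on by the clamp PCNA. Genes of replication are switched on by E2F factors at the border of G1 and S phase, whereas genes of mitosis peak later, in G2 and M phase, under control that runs through CHR elements and CCAAT boxes of their promoters. In the mouse uterus, oestrogen drives epithelial cells into division, and progesterone stops this epithelial division and prepares the stroma to divide.

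The promoters of both kinds of gene differed in these letters, and 5 are printed because they belong to genes on which the results below turn. Each line is the 120 bases before the gene's start, 5′ to 3′ on the gene's strand, from RefSeq (GRCm38.p6). Capitals mark the CHR element TTTGAA and the CCAAT box, on either strand, in Cdk1 (chr10:69352913-69353032, minus strand), Cdc20 (chr4:118437344-118437463, minus strand) and Kif11 (chr19:37376262-37376381, plus strand). In Mcm6 (chr1:128359706-128359825, minus strand) and Rfc3 (chr5:151651209-151651328, minus strand) capitals mark E2F-type letters, and the capital runs of Mcm6 are overlapping matches on both strands.
Cdk1: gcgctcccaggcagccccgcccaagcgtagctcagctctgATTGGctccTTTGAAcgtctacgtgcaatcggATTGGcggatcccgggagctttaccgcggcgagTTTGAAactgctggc
Cdc20: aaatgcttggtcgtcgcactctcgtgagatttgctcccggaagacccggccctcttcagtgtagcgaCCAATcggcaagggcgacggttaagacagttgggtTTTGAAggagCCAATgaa
Kif11: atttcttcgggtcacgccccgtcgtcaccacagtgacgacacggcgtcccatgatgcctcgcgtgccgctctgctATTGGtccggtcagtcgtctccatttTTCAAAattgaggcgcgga
Mcm6: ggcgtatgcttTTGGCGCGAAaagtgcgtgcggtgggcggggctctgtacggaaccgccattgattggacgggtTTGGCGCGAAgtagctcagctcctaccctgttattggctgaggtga
Rfc3: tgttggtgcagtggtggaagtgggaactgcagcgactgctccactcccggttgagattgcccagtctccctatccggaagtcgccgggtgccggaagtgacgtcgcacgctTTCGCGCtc

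Promoters were found for 37 of the 44 genes. Windows of 250 bases before to 50 bases after the start were searched on both strands. TTTGAA stood in 12 of 17 mitosis promoters (70.6%), in 3 of 22 replication promoters (13.6%, from 20 genes) and in 17.9% of all 32851 promoters. CCAAT stood in 15 of 17 mitosis promoters (88.2%), in 15 of 22 replication promoters (68.2%) and in 37.4% of all. Letters of the E2F type (TT, then 2 bases that are each C or G, then CGC) stood in 3 of 17 mitosis promoters (17.6%), in 13 of 22 replication promoters (59.1%) and in 9.57% of all. TTTGAA and CCAAT occurred together in 12 of the 17 mitosis promoters, against 3 of the 22 replication promoters and 6.95% of all. A match is a description of the letters and not of a bound factor.

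The arrays carried the labelled treatment and tissue. Fkbp5, a target of steroid receptors, read 10.01, 9.94 and 9.91 after progesterone and 7.38, 6.39 and 7.15 after oil, on the log2 scale of the deposited values (log2 change 2.98, SE 0.238, limma adjusted p = 0.00145). Pgr, the progesterone receptor, was lower after progesterone (log2 change -1.06, adjusted p = 0.00255), and Gata2, the floxed gene, was higher (0.76, adjusted p = 0.0411). The Gata2 call ended without any 1 array but progesterone replicate 1, with an adjusted p of up to 0.132 (without oil replicate 2). Markers of epithelium (Krt8), stroma (Col1a2) and smooth muscle (Acta2) all read 10.78 or more on every array. Array medians lay between 5.51 and 5.53. The lowest value of any of the 43 genes was 3.73, above the 3.34 that was the highest reading of the TrpnX control probe sets, so all were read above that control level.

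None of the 43 genes passed the threshold between progesterone and oil without regard to replicate number. Over all 18193 genes, 1077 were higher (5.92%) and 1060 lower (5.83%) at an adjusted p under 0.05. At an unadjusted p under 0.05, 6 of the 43 genes passed, 5 of replication (Mcm6, Mcm7, Rfc3, Rfc4 and Ccne2) and 1 of mitosis (Bub1b), beside 26.0% of all genes. The median log2 change was -0.02 over the 25 replication genes (range -0.65 to 0.67), 0.18 over the 18 mitosis genes (range -0.63 to 0.97) and -0.02 over all genes. The mitosis median depended on single arrays: it was -0.28 without progesterone replicate 3, -0.11 without oil replicate 2, 0.60 without progesterone replicate 1 and 0.80 without oil replicate 3. In whole tissue, fewer cells of a type and less RNA per cell cannot be told apart.

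**Figure D1:**
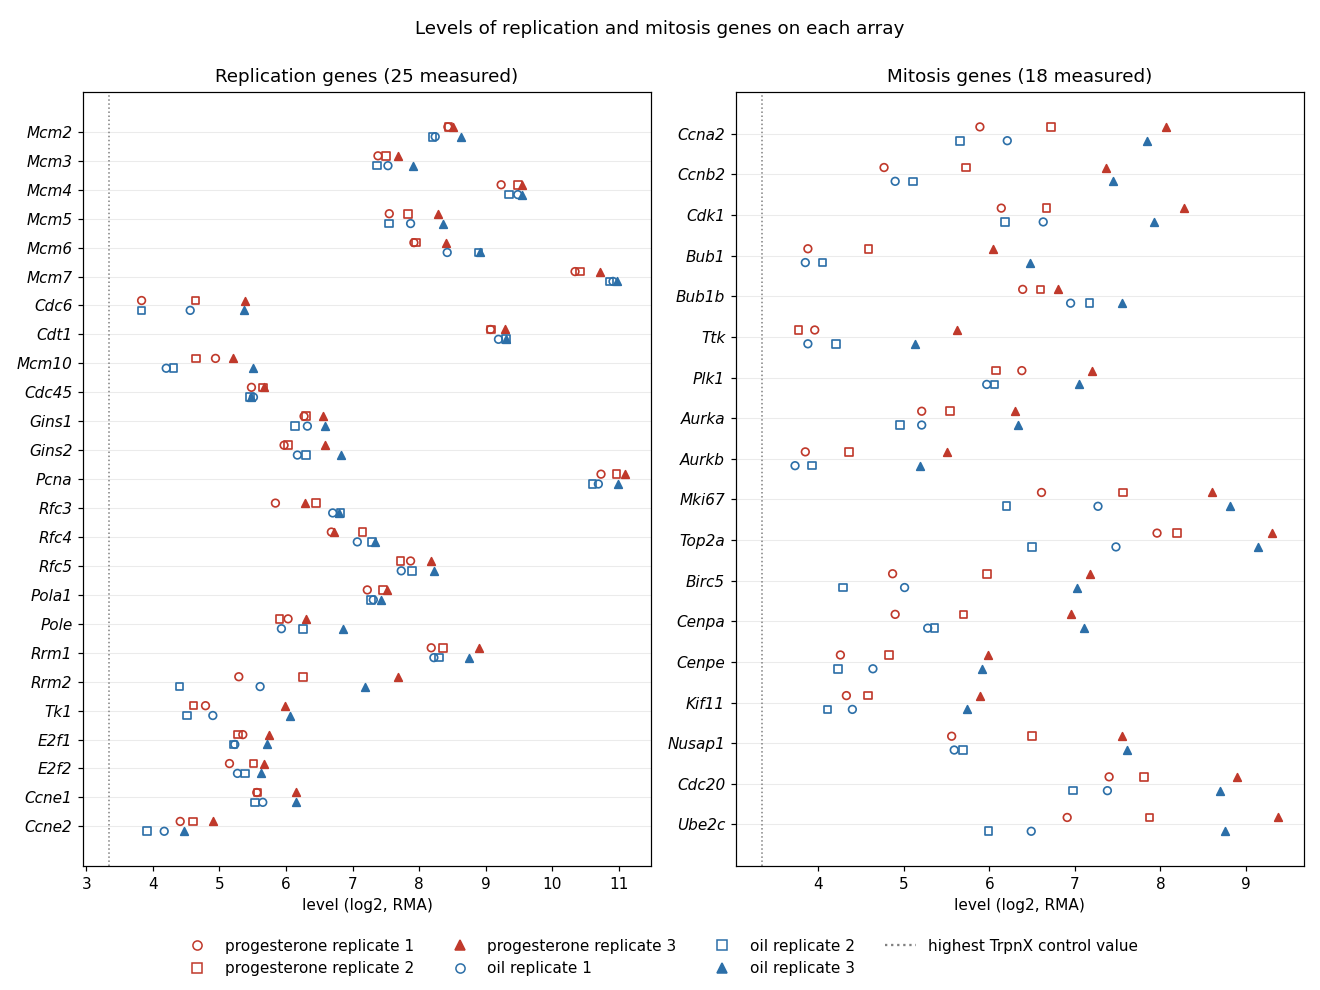
Log2 level (x axis) of each of 25 replication and 18 mitosis genes on each array, with progesterone arrays in red above oil arrays in blue and the shape giving the replicate number. The dotted line is the highest TrpnX control value, 3.34. Triangles, the replicate 3 arrays, stand to the right of the other arrays of their own group in all 18 mitosis genes.

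The 6 subunits of the MCM helicase, which unwinds DNA at the fork, had pooled SDs within groups of 0.135 to 0.389. In 2 of the 6, Mcm6 and Mcm7, the groups did not overlap, beside 30.4% of all genes. Mcm6 read 7.92, 7.95 and 8.40 after progesterone and 8.42, 8.89 and 8.91 after oil. The groups did not overlap, though progesterone replicate 3 and oil replicate 1 lay almost together. The log2 change was -0.65 (SE 0.184, adjusted p = 0.0662), a level 1.57-fold lower. Mcm7 read 10.34, 10.41 and 10.72 after progesterone and 10.91, 10.86 and 10.97 after oil, again without overlap (log2 change -0.42, SE 0.120, adjusted p = 0.0660). Both missed the threshold by a small margin. Without progesterone replicate 3 both passed, at adjusted p = 0.0445 for Mcm6 and 0.0298 for Mcm7. Without any other single array neither passed, at adjusted p = 0.0547 to 0.207 for Mcm6 and 0.145 to 0.180 for Mcm7. The other 4 subunits did not follow. Their log2 changes were 0.10 for Mcm2, -0.08 for Mcm3, -0.04 for Mcm4 and -0.04 for Mcm5, each with a 95% interval that includes 0, the widest being -0.63 to 0.55 for Mcm5.

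Origin licensing and firing showed no gene past the threshold among 6. Cdc6, which loads the helicase on the origin, read 3.83, 4.64 and 5.38 after progesterone and 4.56, 3.83 and 5.37 after oil, with replicate 3 on top in both groups. Its partner in loading, Cdt1, was steady at 9.07, 9.08 and 9.29 after progesterone and 9.19, 9.30 and 9.30 after oil. Gins2, a subunit of the GINS complex that activates the helicase, read 5.97, 6.03 and 6.59 after progesterone and 6.17, 6.30 and 6.83 after oil. The differences between same-numbered arrays of Gins2 were -0.20, -0.27 and -0.24, while the groups overlapped (log2 change -0.24, adjusted p = 0.589). The firing factors Mcm10, Cdc45 and Gins1 differed by 0.26, 0.12 and 0.03.

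Among the 6 genes of the fork itself, none passed and 1, Rfc3, had groups that did not overlap, beside 30.4% of all genes. Rfc3, a subunit of the loader that opens the clamp, read 5.84, 6.45 and 6.28 after progesterone and 6.70, 6.82 and 6.80 after oil. The oil arrays lay close together, above all 3 progesterone arrays (log2 change -0.58, SE 0.159, adjusted p = 0.0591). Rfc4, a second loader subunit, read 6.68, 7.15 and 6.72 after progesterone and 7.07, 7.29 and 7.34 after oil (log2 change -0.38, adjusted p = 0.160), with overlap through 1 progesterone array. The loader subunit Rfc5 differed by -0.02 (95% interval -0.42 to 0.37). Pcna, the clamp that tethers the polymerases, read 10.73, 10.96 and 11.09 after progesterone and 10.69, 10.60 and 10.99 after oil, with overlapping groups (log2 change 0.17, 95% interval -0.17 to 0.50). The polymerase subunits Pola1 and Pole differed by 0.06 and -0.27, and neither passed (adjusted p = 0.819 and 0.552).

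Nucleotide supply varied more between arrays of a group than between groups. Rrm2, the subunit of ribonucleotide reductase that is made in S phase, read 5.29, 6.25 and 7.68 after progesterone and 5.61, 4.40 and 7.19 after oil. Its log2 change of 0.67 carried an SE of 0.800 (adjusted p = 0.679), and both replicate 3 arrays lay well above the rest. Tk1, thymidine kinase, read 4.79, 4.61 and 5.98 after progesterone and 4.90, 4.51 and 6.06 after oil, so that same-numbered arrays nearly coincided (log2 change -0.03). Rrm1, the large subunit of the reductase, also had replicate 3 on top of both groups, at 8.18, 8.36 and 8.89 after progesterone and 8.22, 8.30 and 8.74 after oil.

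Of the 4 regulators at the border of G1 and S phase, the E2F genes and Ccne1 differed by at most 0.08 between groups. E2f1, an activator of replication genes, read 5.35, 5.28 and 5.75 after progesterone and 5.23, 5.21 and 5.71 after oil. Ccne1, cyclin E1, which drives entry into S phase with Cdk2, read 5.56, 5.57 and 6.15 after progesterone and 5.65, 5.53 and 6.15 after oil. Replicate 3 was again the highest in each. Ccne2, cyclin E2, read 4.41, 4.60 and 4.91 after progesterone and 4.17, 3.91 and 4.47 after oil, higher after progesterone in each same-numbered pair but with overlapping groups (log2 change 0.46, SE 0.181, adjusted p = 0.163).

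Mitotic cyclins and their kinase Cdk1, which together start mitosis, differed widely between arrays of a group. Cdk1 read 6.14, 6.67 and 8.27 after progesterone and 6.63, 6.18 and 7.92 after oil. Ccnb2, cyclin B2, read 4.77, 5.73 and 7.36 after progesterone and 4.90, 5.11 and 7.44 after oil. Ccna2, cyclin A2, read 5.89, 6.72 and 8.07 after progesterone and 6.21, 5.66 and 7.84 after oil. In all 3 the replicate 3 array of each group was higher than both other arrays by more than 1 log2 unit, and the groups overlapped throughout. The group difference of Cdk1 was 0.12 with a 95% interval of -1.35 to 1.58, which includes a 2-fold change in either direction.

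Mitotic kinases and the spindle checkpoint, which holds anaphase until chromosomes are attached, followed the same order except for the size of the step in Bub1b. Bub1, a checkpoint kinase, read 3.88, 4.59 and 6.04 after progesterone and 3.85, 4.05 and 6.47 after oil. Ttk, the kinase that starts the checkpoint signal, read 3.96, 3.77 and 5.62 after progesterone and 3.88, 4.21 and 5.13 after oil. Plk1, polo-like kinase 1, which acts in entry into and exit from mitosis, read 6.38, 6.08 and 7.20 after progesterone and 5.97, 6.06 and 7.05 after oil. The replicate 3 arrays were the highest of their groups in each of these genes. Aurka, the kinase of the spindle poles, read 5.21, 5.54 and 6.30 after progesterone and 5.21, 4.96 and 6.34 after oil. Aurkb, the kinase that corrects attachments at the centromere, read 3.85, 4.36 and 5.50 after progesterone and 3.73, 3.93 and 5.19 after oil. Both gave small group differences, 0.18 for Aurka and 0.29 for Aurkb. Bub1b, which encodes the checkpoint protein BubR1, was the exception, at 6.39, 6.60 and 6.80 after progesterone and 6.95, 7.17 and 7.55 after oil. Its groups did not overlap, as in 30.4% of all genes (log2 change -0.63, SE 0.177, adjusted p = 0.0647). Its pooled SD within groups, 0.259, was the lowest of the 18 mitosis genes. That SD still lay at the 84.8th percentile of all genes.

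Genes of the chromosome and the centromere varied widely within groups. Mki67, the proliferation antigen Ki-67, read 6.61, 7.56 and 8.60 after progesterone and 7.27, 6.20 and 8.81 after oil. Top2a, which untangles DNA before chromosomes part, read 7.96, 8.19 and 9.30 after progesterone and 7.48, 6.50 and 9.14 after oil. Birc5, survivin, the partner of Aurkb, read 4.87, 5.97 and 7.18 after progesterone and 5.01, 4.29 and 7.02 after oil. Oil replicate 2 was the lowest of all 6 arrays in these 3 genes, and both replicate 3 arrays the highest. Cenpa, the histone variant that marks the centromere, read 4.90, 5.70 and 6.95 after progesterone and 5.28, 5.36 and 7.11 after oil. Cenpe, a kinesin of the kinetochore, read 4.26, 4.83 and 5.99 after progesterone and 4.64, 4.23 and 5.92 after oil. None of the 5 passed between groups (lowest adjusted p = 0.537, Top2a), and the 95% interval of Mki67 ran from -1.52 to 1.85 around a log2 change of 0.16.

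Spindle genes and activators of the anaphase-promoting complex behaved alike within groups. Kif11, the kinesin that pushes the spindle poles apart, read 4.33, 4.58 and 5.89 after progesterone and 4.40, 4.11 and 5.74 after oil. Nusap1, which bundles spindle microtubules, read 5.56, 6.50 and 7.55 after progesterone and 5.59, 5.69 and 7.61 after oil. Cdc20, which activates the anaphase-promoting complex, read 7.40, 7.81 and 8.89 after progesterone and 7.38, 6.98 and 8.70 after oil. Same-numbered arrays lay nearer to each other than to the rest of their groups except for replicate 2. Ube2c, the ubiquitin-conjugating enzyme of that complex, read 6.91, 7.87 and 9.37 after progesterone and 6.49, 5.99 and 8.76 after oil. Its log2 change of 0.97 was the largest positive value among the 43 genes, but the SD was 1.24 within progesterone and 1.48 within oil, and it did not pass (adjusted p = 0.544).

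The spread between arrays of a group set the mitosis genes apart from the replication genes and from most genes. The pooled SD within groups had a median of 1.02 over the 18 mitosis genes, 0.242 over the 25 replication genes and 0.148 over all genes. Of the mitosis genes 17 lay above the 97th percentile of all genes in this SD, Bub1b being the exception, against 3 replication genes. Replicate 3 exceeded the mean of replicates 1 and 2 by a median of 1.52 (range 0.31 to 2.11) in progesterone and 1.66 (0.49 to 2.52) in oil over the mitosis genes. Over the replication genes the medians were 0.35 in progesterone and 0.41 in oil. Over all genes the medians were 0.01 or less in size in both groups.

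**Figure D2:**
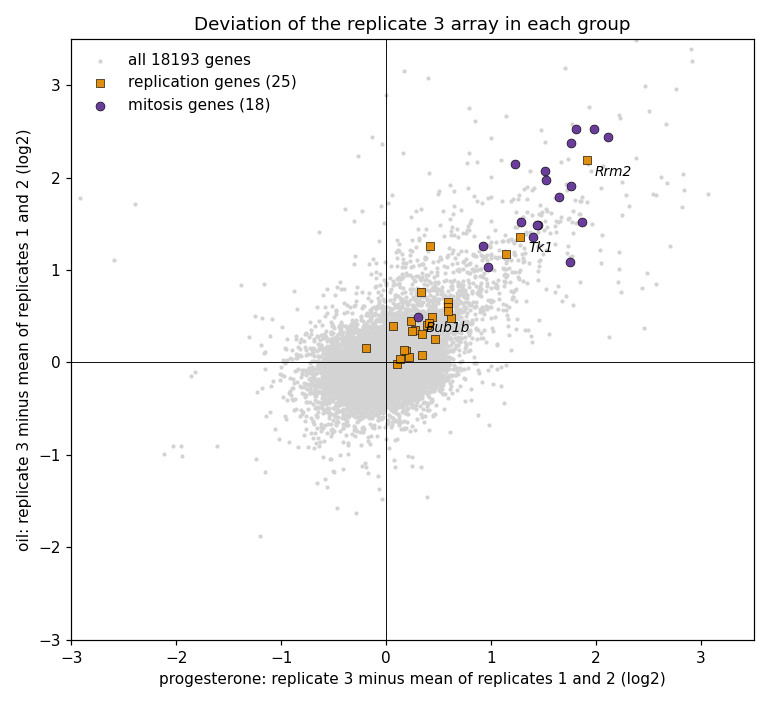
Replicate 3 minus the mean of replicates 1 and 2 (log2), in progesterone on the x axis and in oil on the y axis, for all 18193 genes in grey, 25 replication genes as squares and 18 mitosis genes as circles. Both axes are cut at -3 and 3.5, which leaves out 35 genes. The mitosis genes lie at the upper right, apart from Bub1b, and the replication genes Rrm2, Tk1 and Cdc6 lie with them.

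In the model with group and replicate number, an F test of the replicate number asked whether same-numbered arrays deviate together. It called 10 of the 43 genes, 9 of mitosis and Tk1 of replication, beside 1.20% of all genes (218). The mitosis genes called were Ccnb2 (adjusted p = 0.0123), Aurkb (0.0133), Bub1 (0.0196), Cenpa (0.0207), Kif11 (0.0207), Nusap1 (0.0319), Plk1 (0.0374), Cdk1 (0.0440) and Cdc20 (0.0473), and Tk1 had an adjusted p of 0.0127. At an unadjusted p under 0.05 the term passed in 32 genes, 14 of replication and 18 of mitosis, beside 12.6% of all genes. Replicate 3 was the highest array in both groups in 39 of the 43 genes, beside 16.0% of all genes, the exceptions being Cdt1, Cdc45, Rfc3 and Rfc4. The pattern was already known in these arrays from earlier results, so these counts are not independent support for it. The fit leaves 2 residual degrees of freedom per gene, and it called 0 mitosis genes without progesterone replicate 1, progesterone replicate 3, oil replicate 1 or oil replicate 3, 4 without progesterone replicate 2 and 3 without oil replicate 2.

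Deviations from group means ran in parallel over the 6 arrays. The median Pearson r between pairs of mitosis genes was 0.964, between pairs of replication genes 0.765, and between a mitosis and a replication gene 0.865. An r above 0.9 with the mean of the other mitosis genes was found in 17 of 18 mitosis genes and in 12 of 25 replication genes, against 4.54% of the other 18175 genes. These are descriptions over 6 shared arrays in which replicate 3 dominates. Rfc4 and Rfc3 were the least alike, with r of 0.116 and 0.384.

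Markers of other cells moved with the replicate number too. In the macrophage list 8 of 9 measured genes were called by the same term, 6 of them with replicate 3 highest in both groups. Its summed level (log2 of the sum of the linear values) was 10.83, 11.96 and 12.45 after progesterone and 10.77, 11.40 and 12.09 after oil. In this list the median deviation of replicate 2 from the group mean was 0.50 after progesterone and 0.10 after oil. Over the mitosis genes it was -0.20 after progesterone and -0.70 after oil. In the neutrophil list 3 of 9 were called (Ltf, Csf3r and Cxcr2). Its summed level was 8.11, 13.05 and 13.93 after progesterone and 8.33, 8.60 and 13.45 after oil. In whole tissue, genes of this list, Ltf among them, may also come from other cells. In the mast cell list 2 of 6 were called, neither with replicate 3 highest in both groups. Of 9 epithelial markers none was called, and their summed level was 13.93, 13.40 and 13.98 after progesterone and 13.71, 13.73 and 13.85 after oil. At an unadjusted p under 0.05 the term passed in 5 of these 9, beside 12.6% of all genes. Replicate 3 was highest in both groups in 5 of them, beside 16.0% of all genes. Oil replicate 3 also carried liver transcripts, with Alb at 8.71 there and between 3.96 and 4.29 on the other 5 arrays. The stroma, smooth muscle, endothelium, T and NK cell, B cell, erythroid, eosinophil, liver, adipocyte and ciliated cell lists had 0 genes called by the term. At an unadjusted p under 0.05 it passed in 4 of 6 B cell, 4 of 8 T and NK cell and 3 of 4 adipocyte genes. Replicate 3 was highest in both groups in 0, 2 and 0 genes of these lists. It passed unadjusted in 3 of 10 stroma, 3 of 9 endothelium, 1 of 4 eosinophil and 1 of 6 liver genes, and in 0 genes of the remaining lists. The part of these cells in the replicate 3 result was not tested.

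Deviations of same-numbered arrays were positively correlated across all genes, though only weakly for number 2 (r = 0.141). The labels do not say what a number shares, so pairing is only a hint from these data. On that hint the groups were compared again with the replicate number as a block. In that fit 4 of the 43 genes were lower after progesterone, Mcm6 (adjusted p = 0.0190), Mcm7 (0.0403), Rfc3 (0.0259) and Bub1b (0.0107), beside 8.49% of all genes. Ccne2 was the 1 gene higher (adjusted p = 0.0451), beside 7.60% of all genes. The share of lower genes is near the background and that of higher genes below it. The block removes the replicate 3 step from the error: the residual SD then had a median of 0.336 over the mitosis genes, 0.120 over the replication genes and 0.118 over all genes. Ube2c, with pair differences of 0.42, 1.88 and 0.61, did not pass with the block (adjusted p = 0.0628), nor did Aurkb (0.115) or Top2a (0.118). No call of the blocked fit remained among the 43 genes when both arrays of any 1 replicate number were left out, but in those smaller fits Fkbp5 did not pass either (adjusted p = 0.0504 to 0.0799), so they say little.

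Markers of other cells also differed between groups in this fit. Over all genes, 8.49% were lower and 7.60% higher in it, and 4861 of 18193 were lower in every same-numbered pair. Endothelial markers were lower with the block in 3 of 9 genes (Cldn5, Pecam1 and Tek), with a summed level of 11.77, 11.91 and 11.85 after progesterone and 12.01, 12.46 and 12.28 after oil, so that the groups did not overlap. Their median log2 change was -0.27, and 6 of the 9 were lower in every same-numbered pair. Adipocyte markers were lower with the block in 3 of 4 genes (Adipoq, Fabp4 and Cidec), with a summed level of 8.00, 9.04 and 6.79 after progesterone and 9.82, 10.01 and 8.94 after oil, and all 4 were lower in every pair (median log2 change -1.16). Stromal markers gave 2 higher and 2 lower of 10. The part of these cells in the lower calls of Mcm6, Mcm7, Rfc3 and Bub1b was not tested.

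Same-numbered pairs show what the block compared. For Bub1b the differences were -0.56, -0.57 and -0.75, nearly the same step in each pair. For Mcm6 they were -0.50, -0.94 and -0.51, for Mcm7 -0.57, -0.45 and -0.25, and for Rfc3 -0.86, -0.37 and -0.52. Ccne2 was higher by 0.24, 0.69 and 0.44. The arrays of progesterone and oil did not overlap in 4 of the 43 genes (Mcm6, Mcm7, Rfc3 and Bub1b, all lower), beside 30.4% of all genes.

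**Figure D3:**
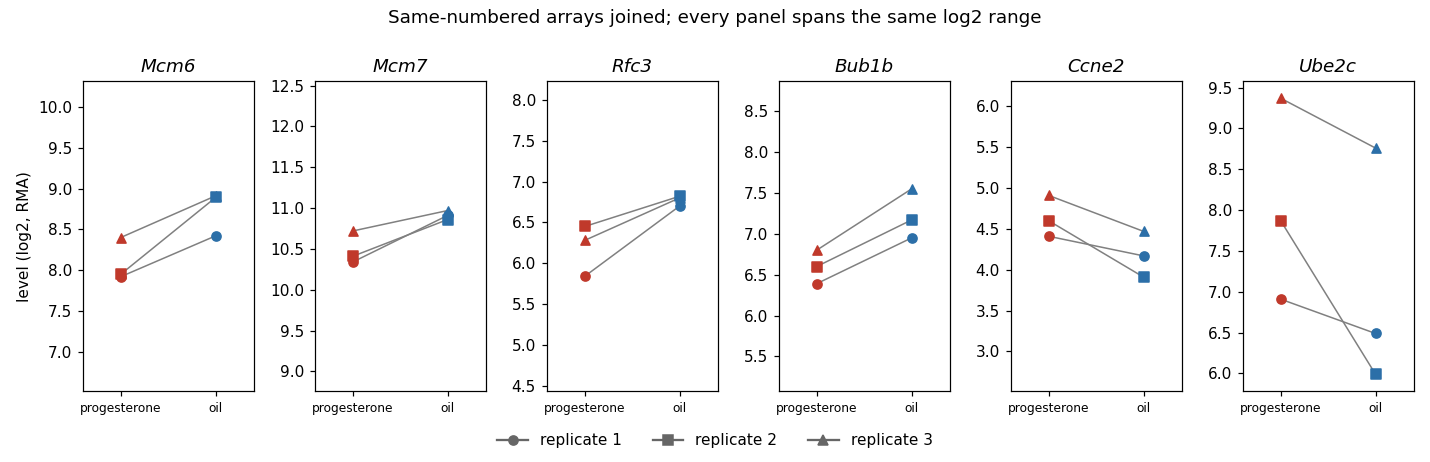
Log2 level of 6 genes on same-numbered arrays, progesterone at the left and oil at the right of each panel, joined by lines. All panels span the same log2 range. Lines of Mcm6, Mcm7, Rfc3 and Bub1b run up to oil and those of Ccne2 and Ube2c run down.

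**Figure D4:**
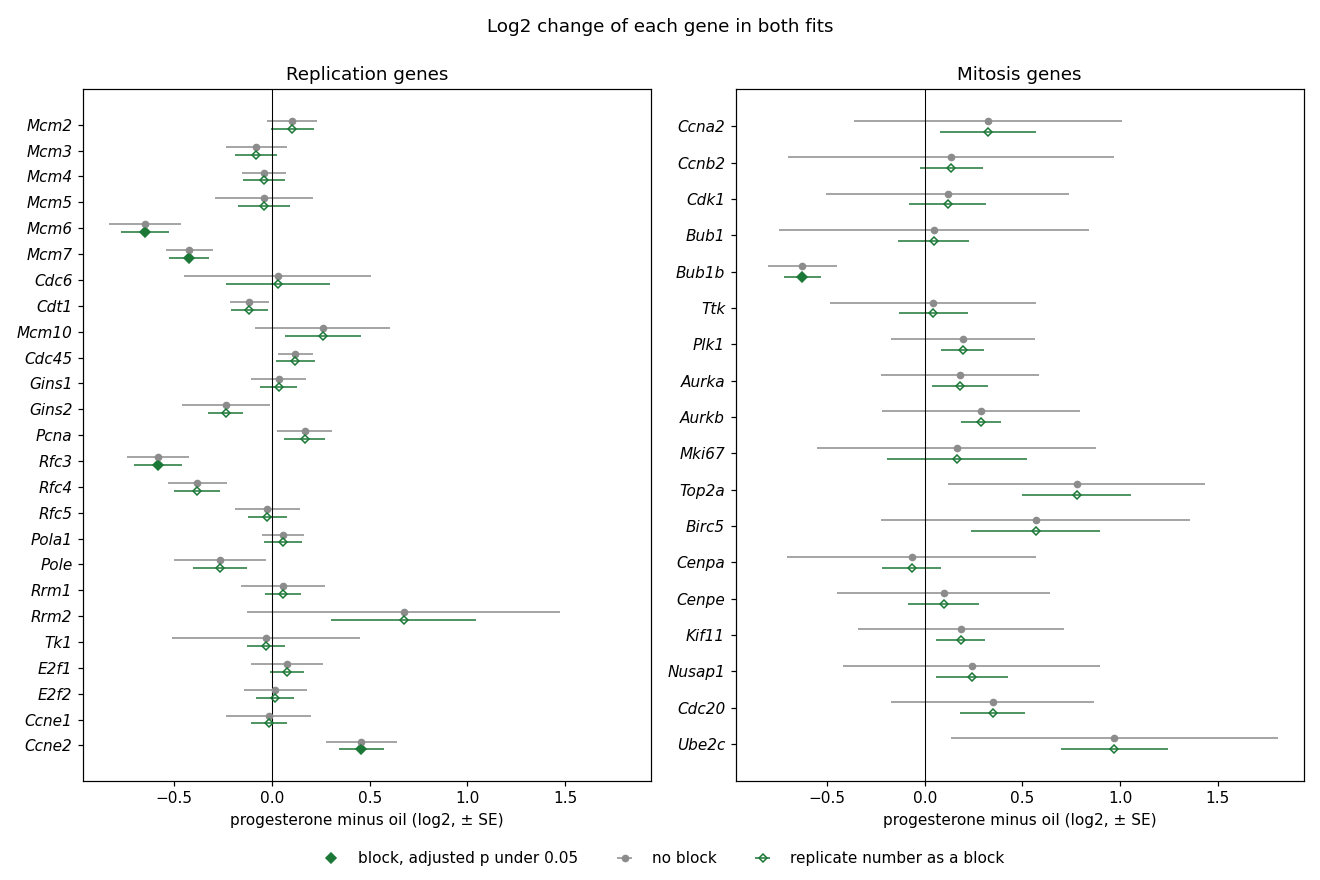
Log2 change, progesterone minus oil, with its SE for each gene, in grey without the block and in green with replicate number as a block. Filled green points passed an adjusted p of 0.05 with the block, which are Mcm6, Mcm7, Rfc3, Bub1b and Ccne2. The bars of the mitosis genes are longer without the block than with it.

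Other probe sets of the same genes gave a second reading on the same arrays. The second probe set of Rfc3 read 5.60, 5.89 and 6.05 after progesterone and 6.41, 6.30 and 6.56 after oil, without overlap, and it passed over all probe sets (log2 change -0.58, adjusted p = 0.0433), where 4.09% were lower. The second probe set of Bub1b differed by -0.56 and passed with the block (adjusted p = 0.0226), as did those of Rfc3 (0.0220) and Gins2 (0.0410), beside 6.49% of probe sets lower with the block. The further probe sets of Mcm7 differed by -0.27, -0.40 and -0.21, and none passed with the block (adjusted p = 0.201, 0.0675 and 0.223). The mean of all Mcm7 probe sets gave a log2 change of -0.33 without the block (adjusted p = 0.125). For Mcm6 the mean of all its probe sets gave a log2 change of -0.34 (adjusted p = 0.273), smaller in size than that of its brightest probe set. That mean includes a probe set near the control level, between 3.08 and 3.53 on the 6 arrays. It also includes one well above that level, between 6.79 and 7.69, whose groups overlapped. That probe set differed by -0.32 and passed neither without the block (adjusted p = 0.455) nor with it (0.333). The replicate number term called 1 of 17 further mitosis probe sets (Kif11) and 0 of 31 further replication probe sets, beside 0.816% of all. Replicate 3 was highest in both groups in 14 of those 17 and in 15 of those 31. The second probe sets of Rfc3 and Cdc45 were among those 15, so the place of these genes among the exceptions depended on the probe set. The second probe set of Cdc45 differed by -0.24 between groups, against 0.12 for the one used, and neither passed. The probe sets used for Mcm5, Rrm2, Ccne1, Aurkb and Cdc20 carry a suffix (x_at) for probes that may also match unrelated transcripts, and those used for Mcm2, Mcm3, Mcm7, Gins2 and Bub1b a suffix (s_at) for probes common to several transcripts. Values of these 10 genes, Mcm7 and Bub1b among them, are therefore less certain.

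Further genes of the same pathways gave few differences between groups. Of 39 other replication genes, 0 were higher and 2 lower: Orc5, a subunit of the origin recognition complex (log2 change -0.43, adjusted p = 0.0282), and Pold1, the catalytic subunit of polymerase delta (-0.38, adjusted p = 0.0327). Of 59 other mitosis genes, 2 were higher and 0 lower: Cdc25a, the phosphatase that activates cyclin-dependent kinases (0.49, adjusted p = 0.0173), and Ncaph, a condensin subunit (0.86, adjusted p = 0.0338). Of 28 cell cycle control genes, Tfdp1, the partner of E2F factors, was higher (0.63, adjusted p = 0.0331) and Cdk6, a kinase of G1, was lower (-0.58, adjusted p = 0.0144). Over all genes the shares were 5.92% higher and 5.83% lower. In the fit with the block, these 6 remained past the threshold and 8 more passed, named here after their values were seen: Tipin higher, Lig1 and Rnaseh2a lower among replication genes, Kpna2 higher and Ncapd2 lower among mitosis genes, and Myc higher, Tfdp2 and Mycn lower among control genes. That makes 1 higher and 4 lower of 39, 3 and 1 of 59, and 2 and 3 of 28, beside 7.60% higher and 8.49% lower of all genes. Leaving out single arrays ended each of the first 6 calls without the block. Without oil replicate 2 the adjusted p was 0.109 for Orc5, 0.0993 for Pold1, 0.0722 for Cdc25a, 0.123 for Ncaph, 0.114 for Tfdp1 and 0.0545 for Cdk6. The call of Pold1 ended without any 1 of the 6 arrays, that of Orc5 without any but progesterone replicate 1, and that of Ncaph without any but oil replicate 3. Cdc25a lost its call also without progesterone replicate 2 or oil replicate 1, Tfdp1 also without progesterone replicates 2 or 3 or oil replicate 1, and Cdk6 also without oil replicate 1. The replicate number term called 15 of the 59 other mitosis genes (25.4%), all with replicate 3 highest in both groups, 3 of the 39 other replication genes and 1 control gene, E2f8.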

How the data were processed

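Total RNA was labelled as biotinylated cRNA for one-colour Affymetrix arrays, per the labels' protocols. Values were deposited on a log2 scale for 45101 probe sets, and Partek 6.6 and RMA appear in the submitters' processing notes; further settings are not given in the sources used here. Of the probe sets, 34945 had 1 gene symbol, 932 several, 9160 none and 64 were controls; 34754 Entrez identifiers matched RefSeq (GRCm38.p6), which changed 0 symbols. Limma 3.58.1 in R 4.3.3 (lmFit, eBayes) was fitted to 1 probe set per gene without a filter or block, two-sided, adjusted by Benjamini-Hochberg across the 18193 genes (threshold 0.05). Intervals are 95% intervals from that fit. Lists are described by counts and medians.

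The labels do not say what a replicate number shares. Over all genes, same-numbered arrays had correlated deviations (r = 0.523, 0.141 and 0.636), all above 0.1, the limit used for this check. Pair 2 had a lower r than progesterone replicate 1 with oil replicate 2, which reached 0.322. Deviations within a group are not independent, so a shared step in replicate 3 also raises r among replicates 1 and 2. The check is therefore only a hint that the numbers pair the samples, and it cannot show that numbers 1 and 2 are matched. Over the members alone the check was mixed: pair 2 had r = -0.328 over the mitosis genes and pair 1 r = -0.200 over the replication genes, while progesterone replicate 1 with oil replicate 2 reached 0.638 and 0.815. The group and the block fit, and the replicate number term, were tested on simulated data. There each gene's SD was capped at 3 times the median SD, and noise was drawn separately for each array. The simulation therefore says little about genes that spread as widely as most mitosis genes. All members could be named; of other pathway lists, up to 6 genes past the threshold; of marker lists, up to 3 genes; Pgr, Fkbp5 and Gata2 as a check of the treatment. Alternatives changed the normalization, offset, dim-gene filter, probe set rule, variance model, block, arrays and threshold; leaving out both replicate 3 arrays, both arrays of 1 number from the block fit, or 1 array from the replicate term was chosen after seeing the data. The gene set, lists and tests were chosen with earlier results of these data known. Scanner files were not used here.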

Additional observations from a re-analysis of the deposited data

How the results depend on the processing

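Over all genes, 328 were higher and 243 lower at an adjusted p of 0.01, 674 and 642 with at least 1.5-fold, and 586 and 441 without both replicate 3 arrays; leaving out 1 array gave 379 to 848 higher and 278 to 907 lower. Among the 43 genes, none was higher except 1 with the replicate block. The count of lower genes was 4 with the replicate block, 3 of the 18 left without the lowest 50% of genes, 2 with the mean of probe sets, 1 each with the probe set of largest interquartile range, trended eBayes and robust eBayes, and 0 to 2 leaving out 1 array. All were among Mcm6, Mcm7, Rfc3 and Bub1b. The other 38 genes, called in neither fit, passed under none of the 23 settings in which each was tested (filters on dim genes left some untested), and 29 of them changed sign under some. Replicate term calls over all genes numbered 106 of 9095 left without the lowest 50%, 360 with trended eBayes, 28 at 0.01 and 0 to 55 leaving out 1 array. For mitosis genes they numbered 3 of the 6 left, 14, 0 and 0 to 4, and for replication genes 0 of the 12 left, 1, 0 and 0. The cause was not tested, except that fits without 1 array have 1 residual degree of freedom. Among the members and the named lists, the calls that the block changed are given in the report. With 3 arrays a group, wide intervals of mitosis genes limit what can be seen, and signal near the control level was not separated from background by detection calls.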
